A study of Mus musculus with 64 samples.

Results

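The comparison described here follows the hearts of mice that lack BMAL1 in cardiomyocytes from the late dark phase, when mice are active, to the early light phase, when they rest. It sets 4 heart arrays taken 3 h after lights on (zeitgeber time, ZT, 3) against 4 taken at ZT21, and these 8 arrays are all those that the labels place in these groups, out of 64 in the series. The series covers 2 genotypes, cardiomyocyte-specific BMAL1 knockout mice (CBK, called knockout here) and their littermate controls (called wild type), at 8 times of day 3 h apart, with 4 arrays per genotype and time. All mice were males on the C57Bl/6J background with free access to standard chow and with 12 h of light in the day. RNA was taken from heart tissue, so endothelial cells, fibroblasts and blood cells, which the deletion does not target, add to every value, and a change in the amount of a cell type cannot be told apart from a change of RNA within its cells. Neither the promoter that drives the deletion nor the age of the mice is stated in the labels. Nothing in the labels says that each numbered sample is another mouse, and the p-values therefore rest on a spread between samples that may be technical.

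BMAL1, encoded by Arntl, pairs with CLOCK to switch on the Period, Cryptochrome, Rev-erb and D-box factor genes, whose proteins feed back on the pair and set a daily cycle in nearly every cell. In the heart this cell-autonomous cycle is known to time metabolism, signalling and contractility. The heart also receives daily cues from outside, such as feeding, autonomic nerve activity, body temperature and glucocorticoid hormone, which reach the tissue whether or not the cardiomyocytes have a working clock. A change between ZT21 and ZT3 in knockout hearts is thus measured in a tissue whose main cell type lacks a clock activator while the mice still live in a light and dark cycle.

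Across lights on, 3 genes changed in knockout hearts. Gsta3, a glutathione S-transferase that couples glutathione to reactive compounds, and Adh1, an alcohol dehydrogenase that oxidises ethanol and retinol, fell. Spon2, a secreted matrix protein also called mindin, rose. These were the features with an adjusted p under 0.05 among 9137 tested, or 0.0328% (0.0109% higher and 0.0219% lower; limma on normalised log2 intensity, Benjamini-Hochberg adjustment over all features). The fit covered all 64 arrays with a mean for each genotype and time. A further 29 features passed when the arrays were weighted by their quality and not in the unweighted fit, and they are described separately with that test named.

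Most of the transcriptome differed little between the times. The median size of a difference was 0.0916 on the log2 scale, 19 features were more than 1.5-fold higher and 39 more than 1.5-fold lower at ZT3, and 5 and 11 were past 2-fold. The count of features at an unadjusted p under 0.05 was 273, or 2.99% (1.37% higher and 1.62% lower). The 4 and 4 arrays did not overlap for 352 features, or 3.85%. The 8 arrays detected 9491 to 10073 probes each, with median raw intensities of 126 to 185. Their correlations within a group were 0.986 to 0.993. None of the 8 was among the 3 arrays of the series that spread more than 1.5 times as far from their group means as the median array, but those 3 arrays, 2 of them knockout hearts of ZT9, enter the shared estimate of spread. Cardiomyocyte markers were in place, with 14 of 14 measured markers detected on all 8 arrays.

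**Figure D1:**
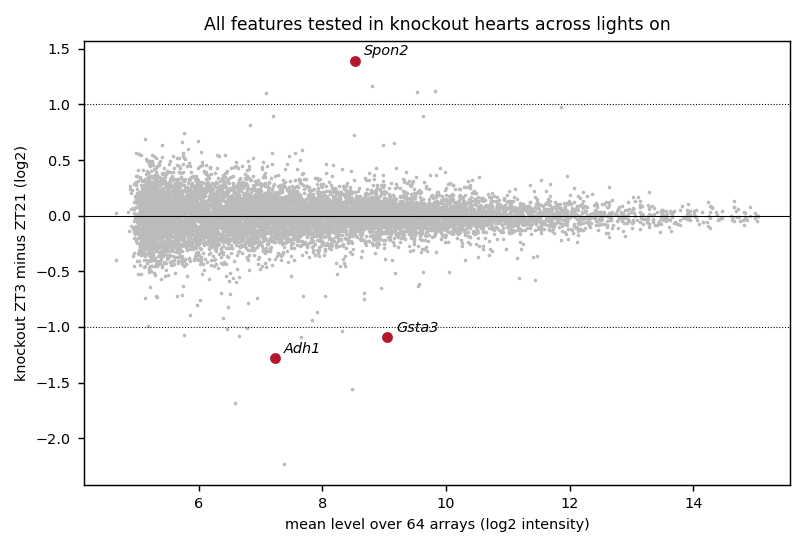
Each point is 1 of the 9137 features, placed by its mean log2 intensity over 64 arrays (horizontal) and its log2 difference between ZT3 and ZT21 in knockout hearts (vertical). The dotted lines mark 2-fold, and the 3 called genes, Spon2 at 1.39, Gsta3 at -1.09 and Adh1 at -1.28, are drawn in red.

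Promoters are shown for the called genes that RefSeq's table holds, which are 2 of the 3, as Spon2 has no entry there. Each is the 250 bases before the start that the promoter table uses (build GRCm38.p6), with matches to the searched motifs in capitals. For Gsta3 RefSeq's gene record begins earlier, at 21240565, so the last 20 bases of its window lie inside that record. Gsta3 is read from chr1:21240335-21240584 and Adh1 from chr3:138277335-138277584, both on the plus strand.
Gsta3: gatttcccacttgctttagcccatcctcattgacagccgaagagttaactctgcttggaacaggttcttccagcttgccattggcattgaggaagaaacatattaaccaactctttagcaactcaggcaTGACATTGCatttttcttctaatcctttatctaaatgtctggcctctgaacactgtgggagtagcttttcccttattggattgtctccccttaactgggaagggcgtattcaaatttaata
Adh1: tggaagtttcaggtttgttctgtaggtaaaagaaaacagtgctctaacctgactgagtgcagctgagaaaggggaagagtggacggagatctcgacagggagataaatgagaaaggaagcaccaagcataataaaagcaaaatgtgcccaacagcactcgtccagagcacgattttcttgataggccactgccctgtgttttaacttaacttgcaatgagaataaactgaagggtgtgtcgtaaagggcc

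The motifs searched on both strands were the E-box CACGTG, the D-box TTATGTAA, the half-site of REV-ERB and ROR receptors AGGTCA, and the core of the antioxidant response element TGACNNNGC. The Gsta3 window held 1 match to the antioxidant response element core, 121 bases before the promoter table's start and 101 bases before the start of the gene record. The Adh1 window held none of the 4 motifs. Among 32851 promoter windows of the same length, 6.02% held the E-box, 0.819% the D-box, 14.0% the receptor half-site and 10.2% the antioxidant response element core. A match of letters is a description of the sequence, and no match says only that these letters are not in this window.

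Gsta3 read 9.65, 9.60, 9.60 and 9.25 log2 intensity units on the ZT21 arrays and 8.54, 8.61, 8.43 and 8.16 on the ZT3 arrays. Every ZT3 array lay below every ZT21 array. The difference was -1.09 ± 0.16 (SE, n = 4 and 4), or 2.13-fold lower, with a 95% interval from -1.42 to -0.76 and an adjusted p of 1.35e-04. In wild type hearts the same step was -1.04 ± 0.16 (adjusted p = 2.29e-04), and the test of the difference between genotypes gave -0.05 ± 0.23 with an unadjusted p of 0.816. Over the day the Gsta3 mean in knockout hearts was highest at ZT18 (9.79 ± 0.10, SD) and lowest at ZT9 (8.17 ± 0.53, SD). The knockout ZT9 group includes arrays 170 and 206, which were among the most widely spread of the series. ZT18 and ZT9 also lie in different time sets. In wild type hearts it was also highest at ZT18, and it was lowest at ZT6. The family holds near-identical genes, and how far a probe picks up related transcripts was not tested. The other 17 glutathione S-transferase genes measured lay between -0.25 and 0.23, and 0 of them had an unadjusted p under 0.05.

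Adh1 read 7.46, 7.21, 7.80 and 7.78 at ZT21 and 6.29, 6.54, 6.11 and 6.18 at ZT3. The groups did not overlap. The difference was -1.28 ± 0.21 (adjusted p = 4.99e-04), or 2.43-fold lower, with a 95% interval from -1.70 to -0.86. The size of the Adh1 fall depended on the background step. It was -0.998 with an offset of 50 and -0.63 with quantile normalisation alone, which lies outside that interval. A different Adh1 probe gave -0.80 ± 0.25, with an adjusted p of 0.649 when all probes were tested. The wild type step was -0.59 ± 0.21 (adjusted p = 0.774), and the difference between genotypes was -0.70 ± 0.30 with an unadjusted p of 0.0223 and an adjusted p of 1.00, so a larger fall in the knockout was not shown. Adh1 was lowest at ZT3 and highest at ZT15 in both genotypes, with means of 6.28 ± 0.19 and 7.83 ± 0.16 (SD) in the knockout.

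Spon2 read 8.95, 8.67, 8.62 and 8.71 at ZT21 and 10.46, 9.75, 10.002 and 10.30 at ZT3. Each ZT3 array was above each ZT21 array. The difference was 1.39 ± 0.28 (adjusted p = 0.0221), or 2.62-fold higher, with a 95% interval from 0.83 to 1.95. The call did not hold with median scaling in place of quantile normalisation (adjusted p = 0.103). It was also lost when any of the ZT21 arrays 160, 192 and 194 or of the ZT3 arrays 165, 183 and 201 was left out, with adjusted p-values of 0.0524 to 0.146, while the difference stayed between 1.28 and 1.43. The step in wild type hearts was 1.33 ± 0.28 (adjusted p = 0.0244), with ZT21 arrays that spread from 7.75 to 9.31. Spon2 had its highest mean at ZT3 and its lowest at ZT15 in both genotypes, a span of 2.83 in the knockout and 2.77 in the wild type on the log2 scale.

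**Figure D2:**
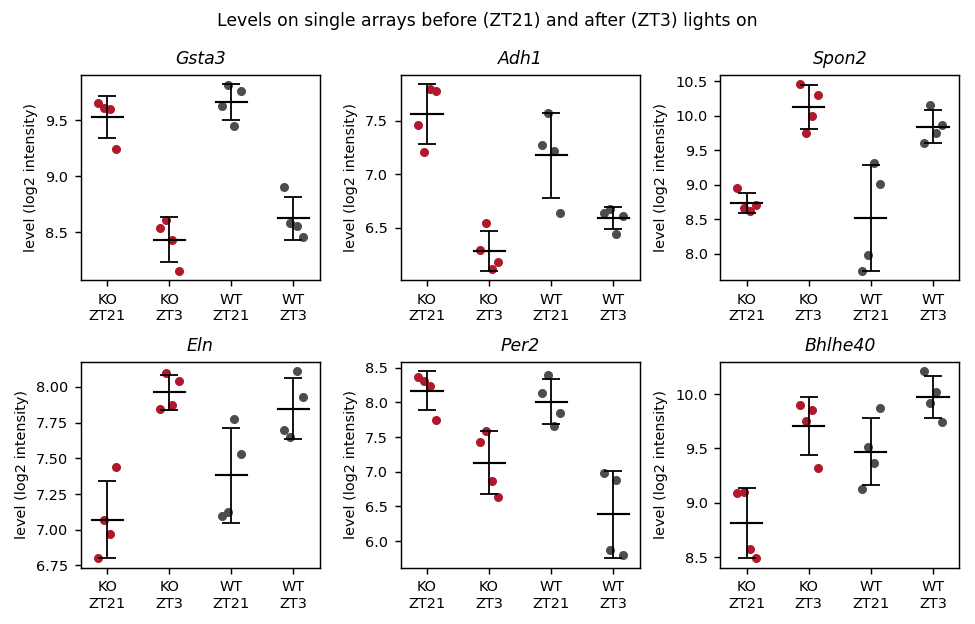
Points are log2 intensities of Gsta3, Adh1, Spon2, Eln, Per2 and Bhlhe40 on the single arrays of knockout (red) and wild type (grey) hearts at ZT21 and ZT3, with the mean and SD of 4 arrays as black bars. In the knockout the ZT3 and ZT21 arrays do not overlap for any of these 6 genes, as for 3.85% of all features. The first 3 named passed the main test there and the others passed only with array weights. The 6 were thus picked by their values on these same arrays, and the lack of overlap is no separate evidence.

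All 3 called genes had the same sign in wild type hearts across lights on and the opposite sign in knockout hearts across lights off, from ZT9 to ZT15. For comparison, 5211 of the 9137 features had the same sign in wild type and 4834 the opposite sign across lights off. The lights-off arrays are other hearts of the same genotype, and there Gsta3 was 1.35 higher, Adh1 0.63 higher and Spon2 0.78 lower at ZT15. For Gsta3 the lights-off groups did not overlap, with 7.68 to 8.91 at ZT9 and 9.25 to 9.78 at ZT15, as for 4.6% of all features. Calls in that comparison, 103 higher and 46 lower (1.63%), moved with single arrays: 9 and 10 were left without ZT15 array 178, 10 and 8 without ZT9 array 206, and 1 and 2 without the 3 widest arrays, which include 2 of the 4 ZT9 arrays. Values rather than calls are therefore given.

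**Figure D3:**
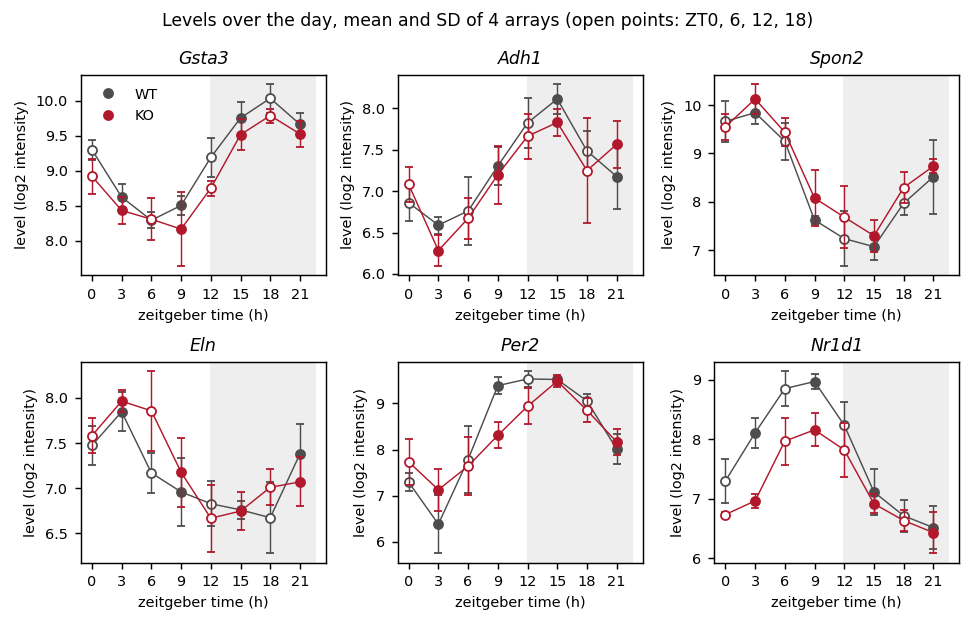
Mean log2 intensity and SD of 4 arrays at each zeitgeber time for 6 genes in knockout (red) and wild type (grey) hearts, with the dark phase shaded and open points for ZT0, 6, 12 and 18, which carry another range of sample numbers. Spon2 and Eln have their highest means at ZT3 in both genotypes, Adh1 and Per2 their lowest, and Nr1d1 lies lower in the knockout at ZT3, 6.96 against 8.11.

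The targeted gene was lower in the knockout at both times. Arntl read 6.92, 7.08, 7.10 and 7.05 in knockout hearts at ZT21 and 7.07, 7.38, 7.48 and 7.38 at ZT3, below all wild type arrays of the same time, which read 7.42 to 7.84 and 7.88 to 8.37. The position of its probe relative to the deleted part is not known here. At ZT12 the order was the other way, with means of 6.16 in the knockout and 5.35 in the wild type. The mean spanned 1.32 over the day in the knockout and 2.94 in the wild type. The knockout low was at ZT9 (6.01 ± 0.58, SD), a group that includes the widely spread arrays 170 and 206. The step from ZT21 to ZT3 was 0.29 ± 0.20 in the knockout (adjusted p = 1.00). Clock, its partner, differed by 0.04 ± 0.15, and its other probe by -0.17 ± 0.18.

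None of the 17 measured clock activators, clock repressors, Rev-erb and ROR receptors, D-box factors and cold-inducible genes changed by the main test, and 3 of them, Per2, Bhlhe40 and Nr1d1, had an unadjusted p under 0.05. Per2 and Bhlhe40 passed with array weights (adjusted p = 0.00315 and 0.00422). Per2, a repressor of the BMAL1 and CLOCK pair, read 8.37, 8.31, 8.23 and 7.75 at ZT21 and 7.43, 7.59, 6.87 and 6.63 at ZT3. The groups did not overlap, and the difference of -1.04 ± 0.26 had an adjusted p of 0.165. A different Per2 probe gave -0.995. In wild type hearts Per2 fell by 1.62 (adjusted p = 3.15e-04), and the difference between genotypes, 0.59 ± 0.37, had an unadjusted p of 0.121. Per1 differed by -0.52 ± 0.35, Cry2 by -0.15 ± 0.26, and Per3 and Ciart were not detected on any of the 8 arrays.

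Bhlhe40, which encodes the repressor DEC1, had the opposite sign to the Period genes. It read 9.09, 9.10, 8.58 and 8.49 at ZT21 and 9.90, 9.75, 9.85 and 9.32 at ZT3, without overlap. The difference was 0.89 ± 0.21 (adjusted p = 0.127), beside 0.50 ± 0.21 in wild type hearts. Its profile over the day peaked at ZT3 in the knockout, with a mean of 9.71, and at ZT9 in the wild type, with a mean of 10.64.

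Nr1d1, which encodes the receptor REV-ERBα, read 6.33, 6.23, 6.21 and 6.95 at ZT21 and 6.83, 6.97, 7.12 and 6.93 at ZT3. The highest ZT21 array lay inside the ZT3 range. The difference was 0.53 ± 0.21 (adjusted p = 1.00) in the knockout, while in wild type hearts Nr1d1 rose by 1.59 ± 0.21 (adjusted p = 3.27e-06). The test of the difference between genotypes gave -1.06 ± 0.29 with an unadjusted p of 6.66e-04, which did not pass the adjustment over all features (adjusted p = 1.00). The means at ZT21 were 6.43 ± 0.35 in the knockout and 6.51 ± 0.37 (SD) in the wild type. Its relative Nr1d2 differed by 0.32 ± 0.20, with another probe at -0.12 ± 0.20, Rora by -0.00 ± 0.21, and Rorb was not detected on any of the 8 arrays.

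The D-box factors, which carry the clock's timing to output genes, showed small steps. Dbp differed by 0.12 ± 0.18 and Nfil3, which opposes the activators at the same sites, by 0.12 ± 0.13. Tef differed by -0.20 ± 0.17 in knockout hearts, and its other probe gave -0.33 ± 0.16 there, with an unadjusted p of 0.0426. In wild type hearts Tef fell by 0.81 (adjusted p = 0.0244). The difference between genotypes, 0.61 ± 0.24, had an unadjusted p of 0.0141 and did not pass the adjustment over all features. The cold-inducible RNA-binding genes Cirbp and Rbm3, which follow body temperature, differed by -0.39 ± 0.21 and -0.14 ± 0.32.

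**Figure D4:**
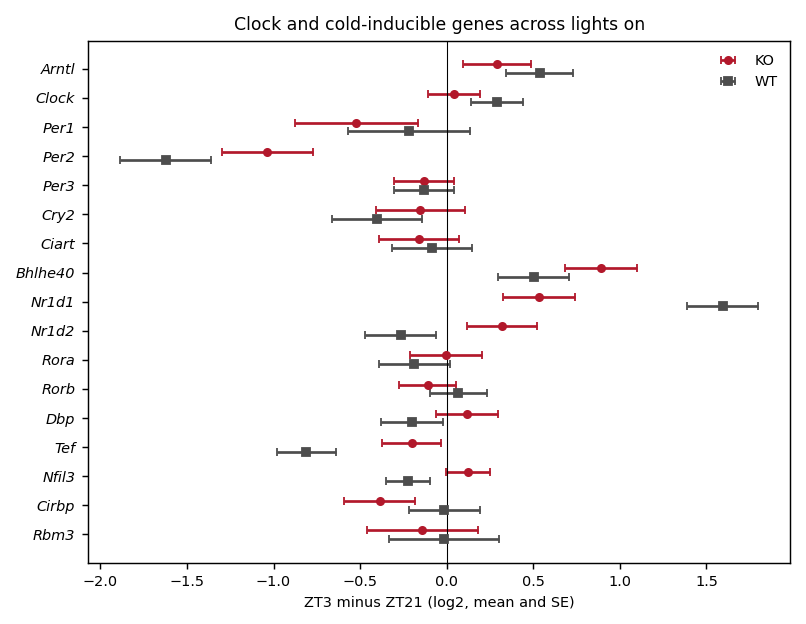
Difference between ZT3 and ZT21 on the log2 scale with its SE for clock, D-box and cold-inducible genes in knockout (red circles) and wild type (grey squares) hearts, 4 arrays per group. Nr1d1, Per2 and Tef pass the test in the wild type, at 1.59, -1.62 and -0.81, and no gene shown passes it in the knockout.

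Among clock output genes, 0 of 20 measured passed the test, while 2 were higher and 3 lower at an unadjusted p under 0.05, beside 1.37% and 1.62% of all features. Adam19, a membrane-bound metalloproteinase, read 9.62, 9.85, 9.73 and 9.80 at ZT21 and 10.26, 10.29, 10.19 and 9.98 at ZT3, without overlap. It differed by 0.43 ± 0.15 in knockout and by 0.08 in wild type hearts. Kcnh2, a potassium channel, differed by 0.42 ± 0.18 in the knockout, while its other probes gave 0.07 ± 0.17 and 0.05 ± 0.15. Dgat2, which makes triglyceride from diacylglycerol, read 10.79, 11.38, 10.73 and 10.73 at ZT21 and 10.22, 10.35, 10.21 and 10.53 at ZT3. It differed by -0.58 ± 0.17 in knockout and -0.60 in wild type hearts, and its ZT3 means were 10.33 in the knockout and 11.88 in the wild type. The cell cycle inhibitor Cdkn1a differed by -0.65 ± 0.20 in the knockout and 0.35 in the wild type, with an unadjusted p of 9.02e-04 for the difference. Outside this list, Plin4, a lipid droplet coat protein, differed by -0.37 ± 0.11.

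Weighting each array by its quality, an alternative that lowers the influence of the widely spread arrays, called 32 features (0.35%), 11 higher (0.12%) and 21 lower (0.23%) at ZT3, the 3 genes above among them. These genes were named after their values were seen, and their differences and SEs are given from the unweighted fit. Of the 11 higher, 9 had the same sign in wild type hearts, and of the 21 lower, 13 did, beside 5211 of all 9137 features. Across lights off, 7 of the 11 and 19 of the 21 had the opposite sign, beside 4834 of all 9137.

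Among them, Eln, elastin, read 6.80, 7.07, 6.97 and 7.44 at ZT21 and 7.84, 8.09, 7.87 and 8.04 at ZT3. The groups did not overlap, and its difference of 0.89 ± 0.20 had an adjusted p of 0.0852 in the main test and 9.10e-04 with array weights, and it was called in 6 of 19 alternatives. Timp3, a matrix-bound inhibitor of metalloproteinases, was at 11.05 to 11.26 at ZT21 and at 10.30 to 10.91 at ZT3, a difference of -0.56 ± 0.14 (adjusted p = 0.129, and 0.00409 with array weights). Its other probe gave -0.27 ± 0.24. Slit2, a secreted guidance ligand, differed by -1.02 ± 0.27 (0.00357 with array weights), and Angptl7, a secreted angiopoietin-like protein, by -1.09 ± 0.29 (0.00749 with array weights). Angptl7 differed by -1.11 in wild type hearts too, while Slit2 had the other sign there, 0.40.

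The wider list of extracellular matrix and fibrosis genes had 42 measured members. None passed the main test, 7 were higher and 3 lower at an unadjusted p under 0.05, beside 1.37% and 1.62% of all features, and the median difference was 0.07, against -2.64e-04 over all features. Differences lay above 0 for 28 members and below 0 for 14, beside 4557 and 4580 of all 9137 features, and ranged from -0.94 to 0.89. In wild type hearts the list's median was -0.00206. Col5a1 and Col6a2, which encode collagen chains, differed by 0.37 ± 0.13 and 0.49 ± 0.18, and Col1a1, the main fibrillar collagen chain, by 0.56 ± 0.22. Fibroblast markers were measured beside them: 12 of 14 listed markers were detected on all 8 arrays, and their summed intensity was 15089 to 16412 at ZT21 and 14691 to 17122 at ZT3. The marker list includes collagen genes, Col1a1 and Col3a1 among them, so the sum is not a separate measure. The part of fibroblasts in the matrix values was not tested.

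Sult1a1, Hsd11b1, Xdh and Slc10a6 were also among the 21 lower features with array weights. Sult1a1, a sulfotransferase for phenols, read 9.66, 9.70, 9.81 and 9.73 at ZT21 and 9.26, 9.02, 8.97 and 9.11 at ZT3, without overlap. Its difference was -0.64 ± 0.15 (adjusted p = 0.129, and 0.0119 with array weights). Hsd11b1, which regenerates active glucocorticoid inside cells, differed by -0.51 ± 0.16 (0.0360 with array weights), and its 2 other probes by -0.66 and -0.60. Xdh, xanthine dehydrogenase, differed by -0.75 ± 0.19 (0.0213 with array weights). Slc10a6, a carrier of sulfated steroids, was above background on 4 of 4 arrays at ZT21 and on 0 of 4 at ZT3, at least 1.29-fold lower (adjusted p = 0.129). In the antioxidant enzyme list, 1 of 30 measured members, Gsta3, was called, and Nqo1 differed by -0.35.

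Glucocorticoid-responsive genes had the lowest median of the lists with at least 4 measured members, -0.23 over 23 genes. None passed the main test, while 0 were higher and 7 lower at an unadjusted p under 0.05, beside 1.37% and 1.62% of all features. Differences below 0 numbered 18 of 23, and 4580 of 9137 over all features. The list's median in wild type hearts was -0.07. Tsc22d3, a leucine zipper protein that hormone treatment raises, read 11.24, 11.26, 11.37 and 10.96 at ZT21 and 10.89, 11.05, 10.65 and 10.70 at ZT3. Its groups overlapped, and it differed by -0.38 ± 0.13 in knockout and by -0.34 in wild type hearts. Its other probe gave -0.24 ± 0.23 in the knockout. Fkbp5, a co-chaperone of the glucocorticoid receptor, was above background on 3 of 4 arrays at ZT21 and on 0 of 4 at ZT3, at least 1.10-fold lower (adjusted p = 0.464). In wild type hearts Fkbp5 fell (adjusted p = 0.0301), but it was above background on 4 of 4 arrays at ZT21 and on 1 of 4 at ZT3, so no size is given. Ddit4, an inhibitor of mTOR signalling, differed by -0.61 ± 0.25. Angptl4, an inhibitor of lipoprotein lipase that also belongs to the PPAR targets, ranged from 7.88 to 9.63 at ZT21 and from 6.05 to 9.17 at ZT3, where a single array was high.

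Ccng2, an atypical cyclin that FoxO factors are known to induce, had the largest fitted difference of all 9137 features. It read 8.14, 8.20, 8.15 and 8.27 at ZT21 and 6.16, 5.74, 6.10 and 5.82 at ZT3, a difference of -2.23 ± 0.55. It was above background on 4 of 4 arrays at ZT21 and on 3 of 4 at ZT3, so the difference is not an exact size. The adjusted p was 0.129 in the main test and 0.00422 with array weights. The SE comes from all groups, and the gene ranged from 5.70 to 8.27 over 32 knockout arrays and from 4.56 to 8.30 over 32 wild type arrays. In wild type hearts the step was 0.04. Cxcl9, a chemokine induced by interferon, was above background on 4 of 4 arrays at ZT21 and on 0 of 4 at ZT3, at least 2.17-fold lower, with an adjusted p of 0.449.

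The other features called with array weights have mixed roles. Higher at ZT3 were Kdelr3, a receptor that returns proteins to the endoplasmic reticulum, by 0.57 ± 0.14 (and called in wild type hearts, 0.62, adjusted p = 0.0318), Prmt2, an arginine methyltransferase, by 0.26 ± 0.09, Bin1, a membrane-bending protein of T-tubules, by 0.53 ± 0.16, and Arap3, a regulator of small GTPases, by 0.35 ± 0.09. Litaf was also among them, as were Frrs1 and Lrrd1, which were above background on 1 and 2 of the ZT3 arrays. Lower were Il33, an alarmin cytokine, by -0.82 ± 0.22, Nt5e, which makes adenosine from AMP, by -0.69 ± 0.18, Lrig1, which restrains growth factor receptors, by -0.39 ± 0.12, and Siah1a, a ubiquitin ligase, by -0.54 ± 0.14. Shroom3, Rell1, Vsig2 and Slc45a3 completed the lower group with differences from -1.08 to -0.69, and the other Shroom3 probe gave -0.20 ± 0.24. The knockout ZT3 means of Il33, Rell1, Vsig2 and Slc45a3 were 5.63, 5.70, 5.83 and 5.39, and the ZT21 mean of Bin1 was 5.75. At such levels signal near background may limit the sizes given. A single unnamed probe was among the higher features.

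None of the measured genes of the main energy and protein pathways passed the test. Over 51 measured genes of oxidative phosphorylation the median was -0.01 and the range -0.17 to 0.14. Over 22 genes of the tricarboxylic acid cycle it was -0.02, over 27 genes of fatty acid uptake and oxidation -0.04, with a range from -0.45 to 0.31, and over 24 genes of glucose uptake and glycolysis 0.01, with a range from -0.27 to 0.24. The lowest fatty acid gene was the transport protein Slc27a1, whose unadjusted p was 0.0395. Over 49 cytosolic ribosomal protein genes it was 0.00, with a range from -0.10 to 0.17. With median scaling the glycolysis and ribosomal medians turned to -0.08 and -0.09, and the median over all features to -0.07. Proteasome subunits lay below 0 in 24 of 28 cases, with a median of -0.05, and endoplasmic reticulum stress genes above 0 in 15 of 18 cases, with a median of 0.14. Over all 9137 features 4580 lay below 0 and 4557 above. In neither list did a member reach an unadjusted p under 0.05.

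Markers of other tissues and cells bear on what the samples held. Atrial markers had a median difference of 0.33, with 9 of 11 above 0, and their summed intensity ranged from 15598 to 21842 at ZT21 and from 15128 to 32820 at ZT3. Mybphl, Sln, Myl7 and Myl4, which mark atrial muscle, differed by 1.17, 1.12, 1.11 and 0.98, all with adjusted p = 1.00. Their part in the other values was not tested. Cardiomyocyte markers had summed intensities of 271070 to 274480 at ZT21 and 265950 to 279560 at ZT3. Endothelial, smooth muscle and myeloid markers had medians of 0.04, -0.01 and 0.01, and red blood cell markers -0.14. Adipocyte markers, 4 measured of 12 listed and 2 detected on all 8 arrays, had a median of -0.14. Of the 4, 3 lay below 0 and 1 above, and 1 was detected on none of the 8 arrays. Their summed intensity did not overlap, at 1332.5 to 1476 at ZT21 and 1076.2 to 1305.9 at ZT3. Most of that sum came from Cidea, whose own groups overlapped, at 10.02 to 10.23 at ZT21 and 9.74 to 10.10 at ZT3. The sum is therefore not a measure of the markers as a set. The part of adipocytes in the other values was not tested. With median scaling the endothelial and myeloid medians turned to -0.05 and -0.08, and the median over all features to -0.07.

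**Figure D5:**
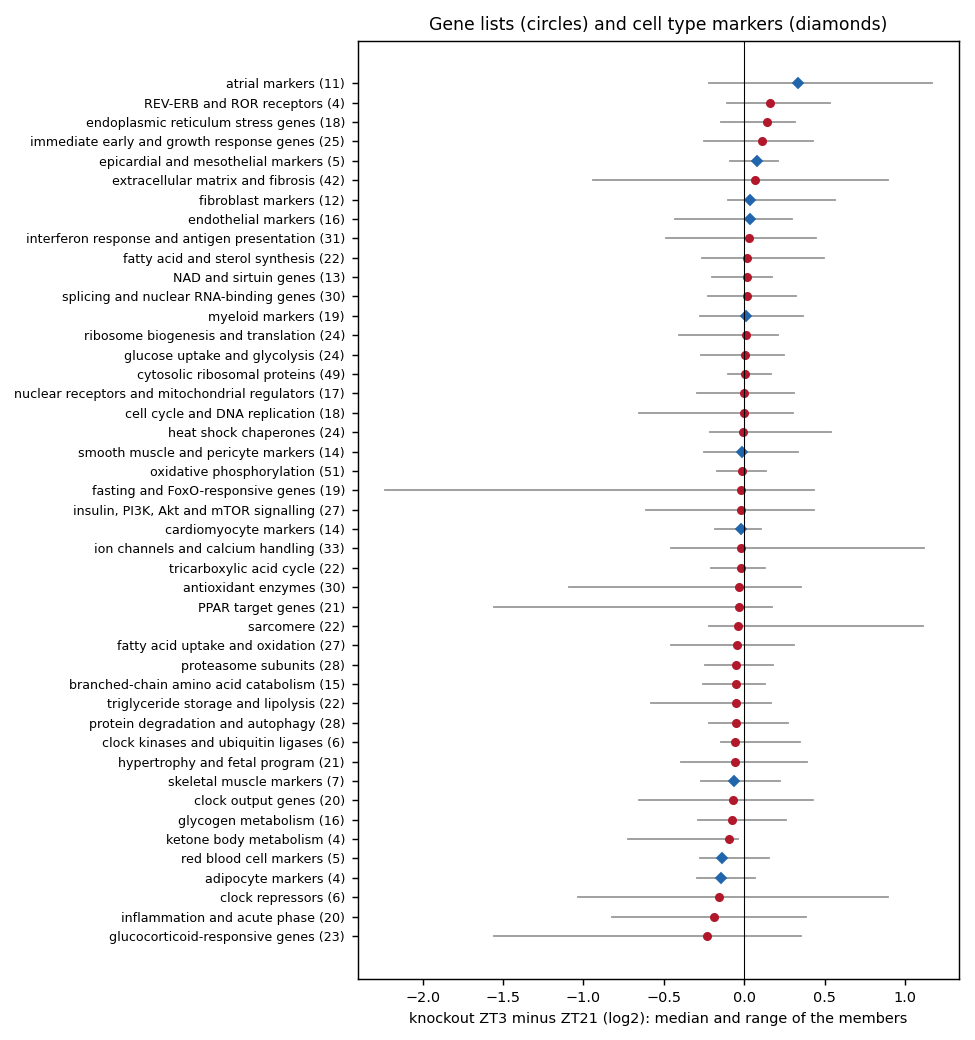
Median (symbol) and range (line) of the log2 difference between ZT3 and ZT21 in knockout hearts for each gene list (circles) and each list of cell type markers (diamonds) with at least 4 measured members, whose number is in brackets. Atrial markers have the highest median, 0.33, and glucocorticoid-responsive genes the lowest, -0.23.

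Wild type hearts had 9 calls across lights on (0.0985%), 5 higher (0.0547%) and 4 lower (0.0438%): Nr1d1, Spon2, Fnbp1, Kdelr3 and Prmt2 rose and Per2, Fkbp5, Gsta3 and Tef fell. Spon2 and Gsta3 were thus called in both genotypes. The direct test of the difference between genotypes called 0 features, with 210 (2.30%) at an unadjusted p under 0.05 and a lowest adjusted p of 0.860. That lowest value belonged to Vsig2, which differed by -0.69 in knockout and by 0.48 in wild type hearts. Weighting the arrays called 1 feature in this test. Calls present in 1 genotype and absent in the other are therefore not shown to differ between them.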

How the data were processed

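The deposited values are an average bead intensity per probe on Illumina MouseRef-8 v2 arrays, not normalised, per the file headers. Each intensity was deposited with its detection p-value, which compares the probe with negative controls. No header or label names the software. Processed intensities were also deposited by the authors, whose order matched the scanner values (Spearman 1). Of these values 26.2% are below 0, the column medians are 14.4 to 14.6, and their exact processing is not stated.

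Background was removed with limma's normexp (R 4.3.3, limma 3.58.1, offset 16), followed by quantile normalisation and log2. Of 25697 probes, 12101 were kept, those detected (p under 0.01) on 4 arrays or more. The probe with the highest mean stood for its gene, giving 9137 features, of which 8449 had a gene symbol and 688 did not. A mean for each of 16 groups was fitted on all 64 arrays with limma (lmFit, eBayes), with Benjamini-Hochberg adjustment and a threshold of 0.05. The number of arrays limits the precision. A probe not above background on every array of a group has only a bound there, given as "at least N-fold": the mean of the brighter group against, on each dim array, the higher of the lowest signal well above background and the probe's own.

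The genes named are the called genes, every measured clock, D-box and cold-inducible gene and up to 4 members per list with the smallest adjusted p, and those called with array weights or singled out as largest were added after their values were seen. The comparison, its 51 gene lists and the markers were chosen with earlier results of these data known. The fit was tested on simulated data that gave a gene the same spread on every array, so that test does not cover widely spread arrays. Promoter sequences are RefSeq's (GRCm38.p6), held for 2 of the 3 called genes.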

Additional observations from a re-analysis of the deposited data

Results flagged for a closer look

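Of 406 groups of 4 arrays tested over the named genes, 20 held an array set apart from the other 3 by Dixon's test at 95%. Chance flags about 1 in 20 groups, so the number of flags is near what chance gives. For the genes the text turns on, Gsta3 was lowest on ZT21 array 194 at 9.246, with the others from 9.598 to 9.647, and this array lay nearest to the ZT3 values. Nr1d1 was highest on the same array at 6.949 against 6.21 to 6.331, Col5a1 at 8.92 against 8.578 to 8.616, Kdelr3 at 7.127 against 6.749 to 6.793, and Rrm1 at 7.186 against 6.926 to 6.96. Dgat2 was highest on ZT21 array 160 at 11.38 against 10.73 to 10.79, which lies farther from the ZT3 values, and so was Klf2 at 9.885.

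On ZT21 array 192 the outlying values were 8.274 for Slc27a1, 5.094 for Cyp51, 8.724 for Idh1, 5.935 for Rtp4 and 6.353 for Tapbp. On ZT21 array 157 it was 4.713 for Per3, which was not above background. Among ZT3 arrays, array 183 read 5.834 for Bdh2, 10.04 for Ddit4 and 5.062 for Mt2, and array 165 read 12.33 for Acaa2 and 7.559 for Sirt1. Tyms read 5.064 on array 167 and Egfl7 11.53 on array 201. All are log2 intensities.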

How the results depend on the processing

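No paired analysis was possible because every array has a sample number of its own. No called result changed sign. Of 203 named genes, 17 changed the sign of their difference under some alternative, Clock, Ciart, Rora and Rorb among them and none of the called genes, and the medians of 13 of 51 lists did so, which were at most 0.037 in size as reported. With median scaling the median over all features was itself -0.07, beside -2.64e-04 as reported. Gsta3 and Adh1 were called in 19 of 19 alternatives and Spon2 in 12 of 19. The counts of higher and lower calls, 1 and 2 in knockout hearts across lights on, 5 and 4 in wild type, 0 and 0 for the difference and 103 and 46 across lights off in the knockout, moved as follows. Knockout lights-on calls were 2 and 2 with quantile normalisation alone or an offset of 50, 0 and 2 with median scaling, 2 and 5 with the 32 arrays of ZT3, 9, 15 and 21 alone, 2 and 7 with the contrast's own arrays, 11 and 21 with array weights, and 3 and 3 without the 3 widest arrays, an alternative chosen after seeing the data. Wild type calls were 3 higher with quantile normalisation alone, with no filter and with the 32 arrays, 1 higher with median scaling, 1 and 1 with own arrays and 14 and 16 with array weights. The difference had 3 lower calls with own arrays and 1 with array weights. Lights-off calls were 23 and 3 with median scaling, 66 and 26 with no filter, 33 and 16 with the 32 arrays, 0 and 0 with own arrays, 3 and 4 with array weights, and 1 and 2 without the 3 widest arrays. Leaving out 1 array gave 0 to 2 and 2 to 3 in knockout, 2 to 5 and 2 to 5 in wild type, 0 and 0 for the difference, and 9 to 423 and 8 to 227 across lights off, the last highest without ZT9 array 171 and lowest without ZT15 array 178 or ZT9 array 206. The cause was not tested, apart from the smaller number of arrays where some were left out. The headers give no slide, so a slide block was not run. Signal near background limits what can be said of Fkbp5, Cxcl9, Slc10a6 and Ccng2. It may also limit the sizes given for Il33, Rell1, Vsig2, Slc45a3 and Bin1. The size for Adh1 changed with the background step, from -1.28 as reported to -0.63 with quantile normalisation alone.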
